A study of Mus musculus with 2 samples.

Results

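The genes described here carry cholesterol out of cells or move it through the lysosome: Apoe, Abca1, Abcg1, Nr1h3, Mylip, Lipa, Npc1, Npc2, Soat1 and Nceh1. They were picked by gene symbol, and all 10 were found among the 31253 features of both libraries. Cells take up cholesterol as lipoproteins or debris. Esters are cleaved in the lysosome, free cholesterol leaves it for other membranes, and any excess is re-esterified into lipid droplets or pumped out to apolipoprotein E. Liver X receptors (LXR), nuclear receptors that bind oxidised sterols, switch on the efflux genes, and in injured brain phagocytes that clear myelin depend on this route.

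The cells came from infarcted mouse brain tissue, 3 days after a transient middle cerebral artery occlusion (tMCAO), in which one large brain artery is blocked and then reopened. Tissue was digested with collagenase, and BD Rhapsody, a microwell system that tags each RNA molecule with a unique molecular identifier (UMI), gave 1 library labelled flox and 1 labelled Hilpda cKO. Hilpda encodes a protein that coats lipid droplets and slows triglyceride breakdown. The design text calls the comparison animals WT, whereas the sample label says flox. Both groups had the occlusion, and no library of unoperated brain was analysed here. The driver of the Cre recombinase, the deleted exons, the number of pooled animals, and their age and sex were stated nowhere in the sources used here. With 1 library per group, library preparation and genotype cannot be told apart, every difference is between these 2 libraries, and no test was made. Intervals are exact 95% intervals and cover counting error only.

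After filtering, 8065 flox and 6984 cKO cells were kept, with median depths of 6997 and 8741 UMIs. The targeted gene, Hilpda, had 273 CPM (UMIs of the gene per 1e6 UMIs of all genes) in all flox cells and 214 CPM in the cKO-labelled library. It was lower in the cKO-labelled library in macrophage-like cells, at 472 and 268 CPM, and in neutrophil-like cells, at 202 and 33.6 CPM (49 and 14 UMIs). It was higher there in border-associated macrophage-like (70.5 and 130 CPM), mural-like (144 and 238 CPM) and dendritic-like cells (122 and 184 CPM). Intervals of endothelial-like and oligodendrocyte-like cells included equal levels. In microglia-like cells Hilpda was also higher, at 101 and 224 CPM. That microglial value goes against the label if the deletion was meant for those cells, and reads near the 3′ end may lie outside the deleted part, so Hilpda does not check the genotype. Cells were clustered without the 10 genes, and clusters were called "X-like" from marker genes. Comparisons were limited to the 8 classes that reached 100 cells in both libraries: monocyte or macrophage (3633 flox and 3085 cKO cells, below macrophage-like), microglia (2143 and 1414), endothelial (563 and 546), oligodendrocyte (351 and 359), dendritic (279 and 254), neutrophil (201 and 298), border-associated macrophage (187 and 186) and mural (107 and 110). Median depths were 7934 and 10060 UMIs in macrophage-like, 9115 and 14422 in microglia-like, 8567 and 11054.5 in border-associated macrophage-like and 3948 and 5553.5 in endothelial-like cells. They were 4510 and 4950 in oligodendrocyte-like, 4300 and 5007 in dendritic-like, 3208 and 5879.5 in mural-like and 1060 and 1299.5 in neutrophil-like cells. The 9 macrophage markers summed to 7667 and 8598 CPM in macrophage-like and to 743 and 696 CPM in microglia-like cells. The 11 microglia markers summed to 17616 and 15619 CPM in microglia-like and to 3076 and 2766 CPM in macrophage-like cells. Unnamed cells were 2.13% of flox and 2.16% of cKO cells, the thresholds of the naming rule were set after the clusters were seen, and 56 cell barcodes occurred in both libraries.

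Pairs of values below give the flox library first and the cKO-labelled library second. Levels are CPM of summed UMIs of a class, and they are compared between classes for 1 gene, never between genes.

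Apoe, which encodes apolipoprotein E, the main lipid acceptor secreted in brain, was a gene of macrophage-like cells in these libraries. Its level there was 15750 CPM (95% interval 15706 to 15795) and 13616 CPM (13576 to 13657), and this class held 85.8% and 83.4% of all Apoe UMIs. Border-associated macrophage-like cells followed at 7235 CPM (7109 to 7361) and 7644 CPM (7524 to 7765), and microglia-like cells at 2576 CPM (2555 to 2597) and 2808 CPM (2785 to 2831). These 3 classes stood in the same order in both libraries with no overlap of intervals. The lowest of the 8 was endothelial-like in both libraries, at 694 and 504 CPM, next to mural-like cells at 754 CPM in flox, whose interval overlapped it, and at 1542 CPM in the cKO-labelled library, whose interval did not. Astrocyte-like cells, a class known for Apoe in healthy brain but with only 69 and 106 cells here, had 1601 and 2436 CPM.

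Free RNA in the cell suspension can put Apoe UMIs into any cell, so its level in each class was set beside that of Arg1, a marker of macrophage-like cells. Microglia-like cells had 16.4% and 20.6% of the macrophage-like Apoe level but only 1.58% and 2.07% of the Arg1 level. The shares of the macrophage markers Ccr2, Ly6c2, Chil3, F10 and Thbs1 lay between 1.02% and 1.96% there. Those of Plac8 (5.04% and 8.2%), Ms4a4c (9.16% and 13.7%) and Fn1 (75.7% and 64.4%) were higher. In oligodendrocyte-like cells the Apoe and Arg1 shares lay closer together, at 6.09% and 7.23% for Apoe and 4.45% and 3.51% for Arg1. Mural-like cells of the cKO-labelled library had 11.3% of the Apoe and 8.64% of the Arg1 level. The part that free RNA or attached macrophage material has in the low Apoe levels was not tested. With every cell thinned to 1000 UMIs, 98.1% and 98.5% of macrophage-like and 69.1% and 75.3% of microglia-like cells had an Apoe UMI (99.6% and 99.8%, and 95.1% and 97.9%, unthinned). Thinning left out shallower cells, 33 and 39 macrophage-like, 11 and 8 microglia-like, 57 and 86 endothelial-like, 70 and 61 oligodendrocyte-like, 8 and 8 dendritic-like, 7 and 11 border-associated macrophage-like and 15 and 8 mural-like. The lowest thinned share of any named class, 34.0% and 34.2% in oligodendrocyte precursor-like cells (median depths of 12479 and 14317 UMIs), gives the background against which these shares are read.

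Abca1 encodes the pump that loads cholesterol and phospholipid onto lipid-poor apolipoproteins, and its promoter holds one of the best known LXR elements. Abca1 was spread over both large phagocyte classes. Macrophage-like cells had 741 CPM (731 to 750) and 731 CPM (722 to 740), and microglia-like cells 624 CPM (614 to 635) and 640 CPM (630 to 651). Border-associated macrophage-like cells had 408 and 522 CPM and endothelial-like cells 274 and 227 CPM, with no overlap between neighbours in this order of 4 in either library. Oligodendrocyte-like cells were low, at 54.3 and 51.0 CPM. After thinning, 47.6% and 47.4% of macrophage-like, 42.5% and 44.6% of microglia-like and 3.91% and 5.37% of oligodendrocyte-like cells had an Abca1 UMI (91.2% and 93.0%, 90.5% and 95.5%, and 15.7% and 21.4% unthinned).

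Promoter sequence was read for 8 of the 10 genes, from a RefSeq table on GRCm38.p6 with 250 bases before and 50 after each start site. Abca1 is shown because it was the only one of the 8 whose window held an LXR-type element of the DR4 kind, searched on both strands as GGTNA and GGTCA in a row with 5 free bases between them, and Nceh1 because it and Abca1 held the E-box CACGTG, the core bound by lysosomal regulators of the TFEB family. The Abca1 bases lie at chr4:53159896-53160145 (minus strand) and end just before the start site. The Nceh1 bases lie at chr3:27182966-27182995 (plus strand). Capitals mark the DR4 match, which reads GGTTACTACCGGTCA on the other strand, and the E-boxes.
Abca1: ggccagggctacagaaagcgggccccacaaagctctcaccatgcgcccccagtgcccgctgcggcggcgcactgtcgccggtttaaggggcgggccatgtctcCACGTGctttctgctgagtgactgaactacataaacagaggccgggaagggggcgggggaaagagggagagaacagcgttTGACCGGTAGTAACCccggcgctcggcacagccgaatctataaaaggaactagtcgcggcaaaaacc
Nceh1: cctgaggaggaaCACGTGaaacagcagctg
The DR4 match begins 67 bases before the Abca1 start site and the E-boxes 147 bases (Abca1) and 26 bases (Nceh1) before theirs. Of 32851 windows, 0.207% held the DR4 letters and 7.15% the E-box, so an E-box alone is common. The longer lysosomal CLEAR element, the E-box with GT before and AC after it, was in 0.326% of windows and in 0 of these 8. A match describes letters and not a bound site.

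Abcg1, the pump that passes cholesterol to mature lipoprotein particles, followed Abca1 in the 2 large classes but not in border-associated macrophage-like cells. It had 386 CPM (379 to 393) and 525 CPM (517 to 533) in macrophage-like and 320 CPM (313 to 328) and 453 CPM (444 to 462) in microglia-like cells. Border-associated macrophage-like cells had 72.2 CPM (60.2 to 85.9) in flox and 223 CPM (203 to 245) in the cKO-labelled library. In flox this class lay below neutrophil-like, oligodendrocyte-like and endothelial-like cells (136, 118 and 102 CPM), and in the cKO-labelled library it lay above all 3. The thinned share of border-associated macrophage-like cells with an Abcg1 UMI was 5.0% and 17.1% (24.6% and 41.4% unthinned), and in dendritic-like cells, taken as a reference with little Abcg1, 5.17% and 4.88% (19.7% and 26.0%). The flox share of border-associated macrophage-like cells was thus no higher than that of dendritic-like cells. Dendritic-like cells are not the floor for this gene, since mural-like cells had a lower level, 30.8 CPM (17.2 to 50.8) in flox.

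Nr1h3 encodes LXR alpha, one of the receptors that drive the genes above, and its UMIs were few, and macrophage-like cells held 87.1% and 85.7% of them. Macrophage-like cells had a level of 18.0 CPM (16.5 to 19.5; 555 UMIs) and 22.8 CPM (21.2 to 24.5; 732 UMIs). The level in microglia-like cells was 1.48 CPM (1.02 to 2.08; 33 UMIs) and 1.42 CPM (0.948 to 2.03; 29 UMIs). Mural-like cells reached 20.5 and 34.2 CPM on only 10 and 26 UMIs, and their intervals overlapped those of macrophage-like cells. The class of border-associated macrophages had 1 and 12 UMIs, and neutrophil-like cells 1 and 0, where the interval of the count of 0 reaches up to 8.87 CPM. At 1000 UMIs per cell, 1.97% and 2.07% of macrophage-like cells had an Nr1h3 UMI, against 0.188% and 0% of microglia-like cells, where the upper Clopper-Pearson bound is 0.262% (unthinned 13% and 19.4% against 1.54% and 2.05%).

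Mylip encodes the LXR-induced ubiquitin ligase that sends lipoprotein receptors to the lysosome, and it was highest in neutrophil-like and microglia-like cells. Neutrophil-like cells had 186 CPM (136 to 249) and 223 CPM (180 to 274), overlapping microglia-like cells at 176 CPM (170 to 181) and 190 CPM (184 to 196). Macrophage-like cells were lower than microglia-like cells in both libraries, at 130 and 150 CPM. Border-associated macrophage-like cells, at 110 and 174 CPM, overlapped macrophage-like cells in flox and microglia-like cells in the cKO-labelled library. Oligodendrocyte-like cells were lowest at 21.4 and 25.3 CPM. Of microglia-like cells 17.2% and 18.4% had a Mylip UMI after thinning (67.0% and 77.7% before it), of macrophage-like cells 12.3% and 13.2% (53.6% and 63.6%), and of oligodendrocyte-like cells 3.56% and 2.68% (10.8% and 10.6%).

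Lipa encodes lysosomal acid lipase, which cleaves cholesteryl esters and triglycerides delivered by lipoproteins or debris. Macrophage-like cells had the highest level, 831 CPM (821 to 841) and 918 CPM (908 to 929), ahead of border-associated macrophage-like cells at 561 and 595 CPM. Endothelial-like cells, at 349 CPM (327 to 371) and 351 CPM (332 to 370), were level within counting error with microglia-like cells in flox, at 339 CPM (332 to 347), and below them in the cKO-labelled library, at 426 CPM (417 to 435). Oligodendrocyte-like cells were lowest, at 84.4 and 109 CPM. The share of cells with a Lipa UMI after thinning was 49.6% and 51.7% in macrophage-like, 24.2% and 29.2% in microglia-like, and 5.69% and 9.73% in oligodendrocyte-like cells. Without thinning these shares were 90.8% and 91.8%, 74.9% and 86.4%, and 29.6% and 30.6%.

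Npc1, the membrane protein that passes cholesterol out through the lysosomal membrane, was the only one of the 10 with oligodendrocyte-like cells at the top. They had 358 CPM (334 to 384) and 402 CPM (377 to 428), overlapping macrophage-like cells at 351 CPM (345 to 358) and 384 CPM (378 to 391). Border-associated macrophage-like cells (205 and 221 CPM) and microglia-like cells (197 and 216 CPM) formed a second level with overlapping intervals. Endothelial-like cells were lowest, at 36.0 and 35.1 CPM. Thinned shares were 26.0% and 28.9% in oligodendrocyte-like cells and 3.75% and 3.70% in endothelial-like cells (68.7% and 67.4% against 14.2% and 21.2% unthinned). Another gene, Rmc1, overlaps the 3′ end of Npc1 on the opposite strand, and the sources used here do not say whether counting used strand, so reads of the 2 genes may be mixed.

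Npc2, the soluble lysosomal protein that hands cholesterol to NPC1, was more even. Macrophage-like cells had 895 CPM (884 to 905) and 876 CPM (866 to 887), border-associated macrophage-like cells 676 and 651 CPM, microglia-like cells 642 and 655 CPM, and dendritic-like cells 557 and 490 CPM. The 2nd and 3rd of these overlapped in both libraries, and dendritic-like cells lay below both. Neutrophil-like, oligodendrocyte-like, mural-like and endothelial-like cells lay between 120 and 211 CPM. Unlike Npc1, Npc2 was thus low in oligodendrocyte-like cells, at 198 and 209 CPM. Thinned shares were 58.2% and 57.5% in macrophage-like and 9.78% and 10.8% in mural-like cells (97.4% and 97.6% against 36.4% and 44.5% unthinned).

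Soat1 makes cholesteryl esters from free cholesterol in the endoplasmic reticulum, and Nceh1 is a hydrolase of cytosolic lipid esters that acts against it. Soat1 was at 533 CPM (525 to 541) and 589 CPM (581 to 598) in macrophage-like cells. It was at 317 and 336 CPM in border-associated macrophage-like and at 287 CPM (280 to 294) and 369 CPM (361 to 378) in microglia-like cells. Dendritic-like cells had 218 and 254 CPM, neutrophil-like cells 186 and 276 CPM, and endothelial-like cells, the lowest, 32.4 and 30.8 CPM. Nceh1 was at 263 CPM (257 to 268) and 280 CPM (274 to 285) in macrophage-like cells. Next came border-associated macrophage-like cells (125 and 121 CPM), oligodendrocyte-like cells (104 and 116 CPM) and microglia-like cells (118 and 144 CPM). Neighbours among these 3 overlapped in flox, whereas microglia-like cells lay above the other two in the cKO-labelled library. Nceh1 was 50.9 CPM or less in the other 4 classes in both libraries. After thinning, 37.2% and 40.5% of macrophage-like cells had a Soat1 UMI and 22.1% and 22.4% an Nceh1 UMI, against 3.75% and 2.83% for Soat1 and 3.95% and 2.61% for Nceh1 in endothelial-like cells. The unthinned shares of macrophage-like cells were 90.4% and 92.7% for Soat1 and 74.4% and 80.7% for Nceh1, and those of endothelial-like cells 12.6% and 16.1% and 15.3% and 21.4%.

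**Figure D1:**
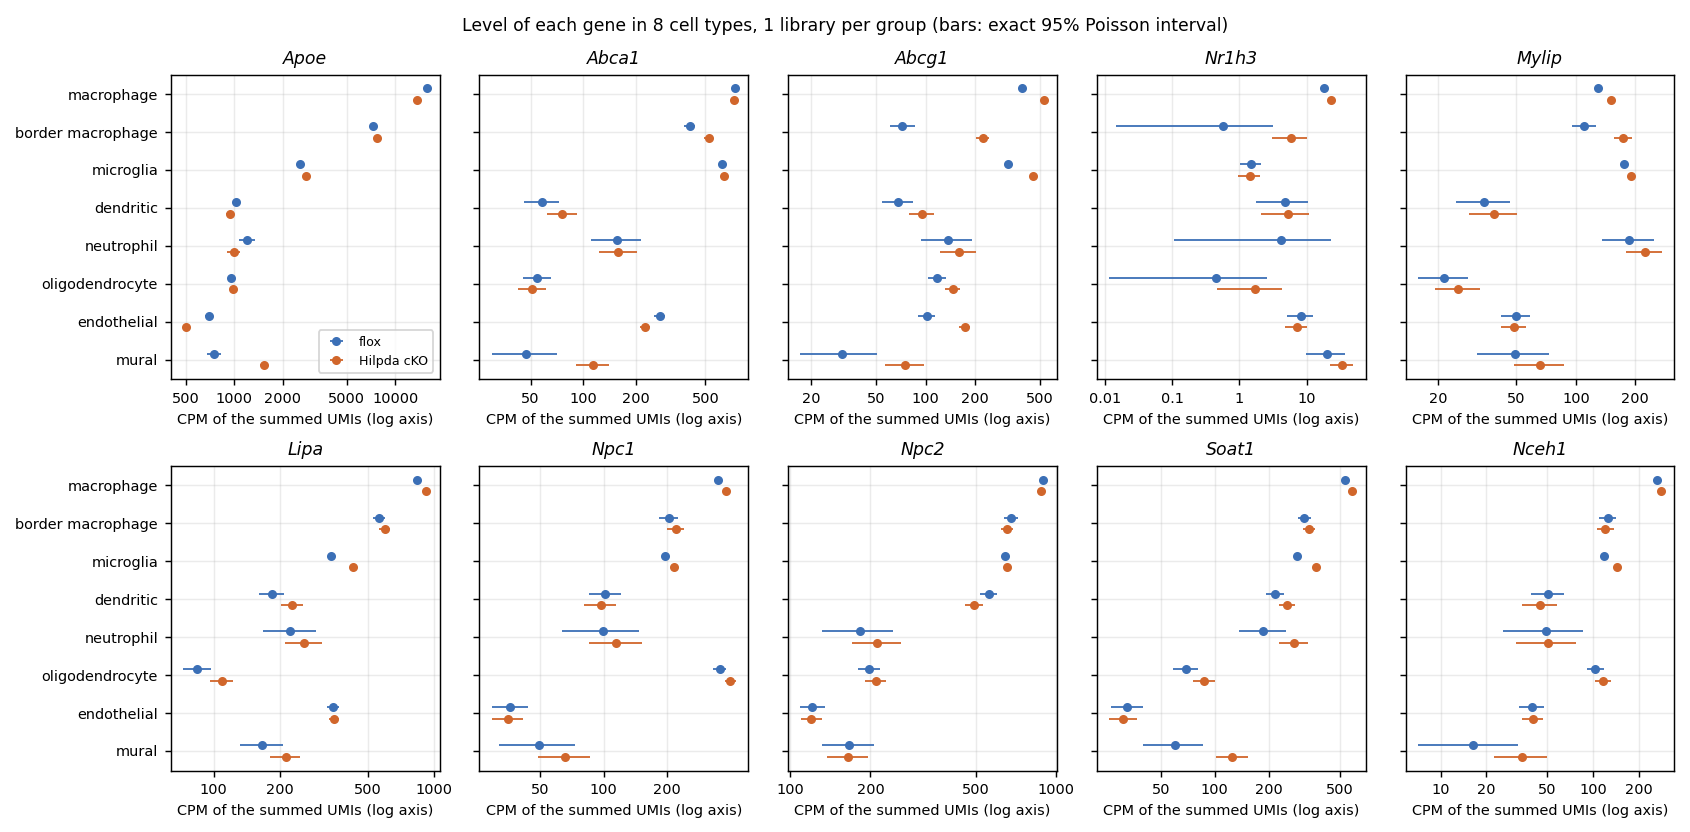
Level of each of the 10 genes in 8 classes (rows), as CPM of the summed UMIs on a log axis, with flox in blue and Hilpda cKO in orange and bars for the exact 95% Poisson interval; the Nr1h3 point with 0 UMIs is not drawn. Macrophage-like cells are highest for Apoe, from 13616 to 15750 CPM, and oligodendrocyte-like cells stand beside them for Npc1, at 358 and 402 CPM.

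Classes were then compared within each library, and a difference was called where it was at least 2-fold the same way in both libraries, both intervals excluded equal levels and the higher class had at least 30 UMIs in each. Between microglia-like and macrophage-like cells, 3 of the 10 genes were lower in microglia-like cells and 0 were higher. Of 11003 genes measured in this pair, 6.59% were lower and 12.6% higher. Apoe was 6.11-fold and 4.85-fold lower in microglia-like cells. Nr1h3 was 12.1-fold and 16.1-fold lower, and Lipa 2.45-fold and 2.15-fold lower. The remaining genes differed less, with Nceh1 2.23-fold and 1.94-fold lower, Soat1 1.86-fold and 1.60-fold lower, and Npc1 1.78-fold lower in both libraries. Abca1, Abcg1 and Npc2 differed by at most 1.39-fold. Mylip was 1.35-fold and 1.26-fold higher in microglia-like cells.

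These ratios depend on how the classes are drawn. When each cell was instead given a class by its own markers, the microglia over macrophage log2 ratio of Apoe went from -2.61 and -2.28 to -0.78 and -0.73. Lipa went from -1.29 and -1.11 to -0.31 and -0.24, and both calls were lost. Nr1h3 stayed past 2-fold, at -2.09 and -2.54. Abca1 changed direction, from -0.25 and -0.19 to 0.29 and 0.25, and so did Abcg1, from -0.27 and -0.21 to 0.28 and 0.31, so with this gate both pumps were higher in microglia, as was Mylip. The other genes kept their direction. Of the macrophage-like cells, 1144 were assigned to microglia by their own markers, 1422 to macrophages and 4010 to no class by that gate, whereas 3530 microglia-like cells, nearly all of that class, were assigned to microglia. Macrophage cluster 1 scored nearly as high for border-associated macrophages as for its own class, and without it Lipa was at -1.07 and -0.79.

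In border-associated macrophage-like cells, 3 of 10 genes were lower than in macrophage-like cells (background 4.08% lower, 5.19% higher). Abcg1 was 5.34-fold and 2.35-fold lower and Nceh1 2.11-fold and 2.32-fold lower. Nr1h3, at 1 and 12 UMIs, had log2 ratios of -4.98 (95% interval -10.29 to -2.50) and -1.96. All 3 calls were lost with the gate on single cells. Dendritic-like cells were lower for 9 genes, all but Npc2 (background 8.27% lower, 6.18% higher), and neutrophil-like cells for 8, all but Nr1h3 and Mylip (9.01% and 4.43%). Oligodendrocyte-like cells were lower for 9, all but Npc1 (15.4% and 23.0%), and endothelial-like cells for all 10 (15.4% and 17.9%). Astrocyte-like cells were lower for 9, all but Nr1h3 (11.4% and 5.6%). Against astrocyte-like cells, microglia-like cells were higher for 6 genes, Abca1, Abcg1, Mylip, Lipa, Npc2 and Nceh1, where 10.4% of all genes were higher and 4.91% lower.

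**Figure D2:**
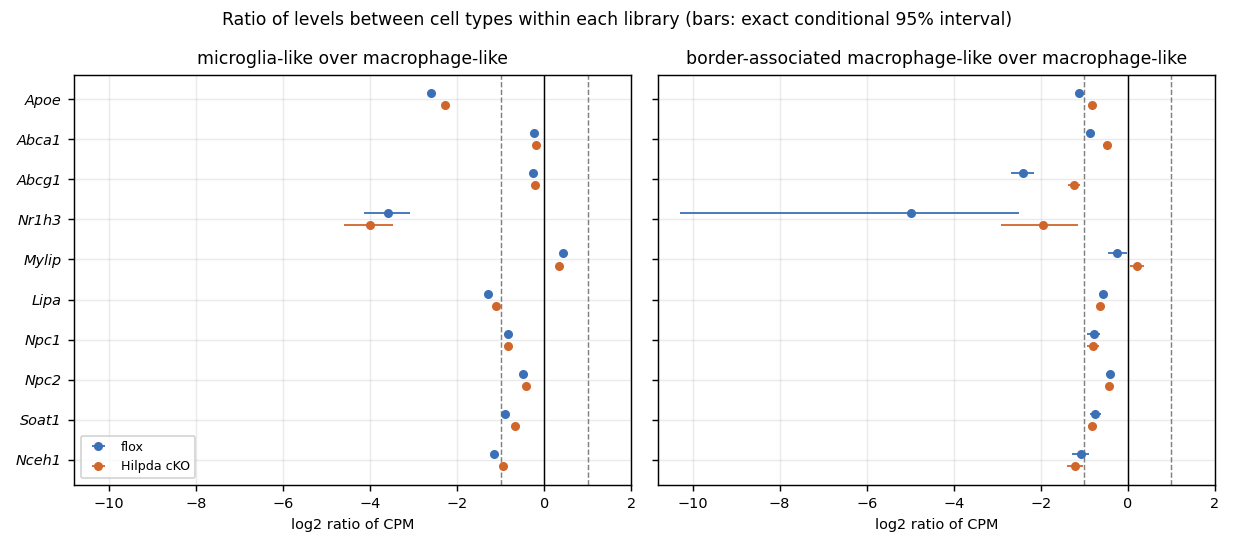
Log2 ratio of the level in microglia-like (left) and border-associated macrophage-like (right) cells over macrophage-like cells for each gene, within flox (blue) and Hilpda cKO (orange), with exact conditional 95% intervals and dashed lines at 2-fold. In microglia-like cells Nr1h3 (-3.60 and -4.01) and Apoe (-2.61 and -2.28) lie farthest from 0, and Mylip is on the other side of 0 with classes drawn by cluster.

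Within microglia-like cells, 4 clusters had at least 50 cells in each library, and Nceh1 spanned the widest range over them among the genes with enough UMIs. Cluster 2, led by Mmp12 and Gpnmb, genes of lipid-laden phagocytes (606 and 558 cells), was set against cluster 4, led by Siglech and Slc2a5, genes of resting microglia (666 and 256 cells). This pair was chosen after the data were seen. Nceh1 was at 183 and 197 CPM in cluster 2 and 13.7 and 25.4 CPM in cluster 4, a 13.4-fold and 7.75-fold difference. Lipa was at 472 and 549 against 139 and 175 CPM, and Soat1 at 397 and 461 against 121 and 125 CPM. None of these intervals overlapped between the clusters. These were the 3 genes called higher in cluster 2 of 9 with enough UMIs (all but Nr1h3), where 9.08% of genes were higher and 7.59% lower. Apoe was 3.06-fold and 1.96-fold higher in cluster 2, Abca1 1.62-fold and 1.32-fold, and Npc2 1.21-fold in both libraries. Mylip was 1.16-fold and 1.69-fold higher in cluster 4. Median depths were 13391 and 17352 UMIs in cluster 2 and 4119.5 and 5488 UMIs in cluster 4, and the part of depth in the ratios was not tested. The microglia-like cluster with the most Apoe was cluster 9, led by Fn1 and Il1b, at 3337 and 4938 CPM.

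Among macrophage-like cells, cluster 1, led by the fatty acid genes Cd36 and Lpl (947 and 1053 cells), was set against cluster 5, led by Ifitm6 and Plac8, genes of recently arrived monocytes (447 and 433 cells). This pair too was chosen after the data were seen. Abca1 was 2.51-fold and 2.08-fold higher in cluster 1, Abcg1 2.65-fold and 2.46-fold, Lipa 2.51-fold and 2.70-fold, and Nceh1 2.45-fold and 2.10-fold. These 4 of 10 genes were called, against 4.42% of genes higher and 5.35% lower. Apoe fell just outside the rule, at 2.04-fold and 1.97-fold, and so did Npc1, at 2.0-fold and 1.94-fold. Soat1 was 1.63-fold and 1.76-fold higher. Median depths were 10779 and 13316 UMIs in cluster 1 and 4743 and 5509 UMIs in cluster 5. The part of depth in these ratios was not tested. Npc2 hardly differed, at 849 and 839 CPM in cluster 1 and 0.961 and 0.934 times its level in cluster 5, and it was highest in cluster 7, led by the interferon-induced genes Rsad2 and Ifit3, at 1143 and 1226 CPM. Apoe was highest in cluster 0, led by Gdf15 and Hebp1, at 17983 and 16187 CPM, and lowest in cluster 5, at 8189 and 7382 CPM. Even that lowest macrophage-like level was above every microglia-like cluster.

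**Figure D3:**
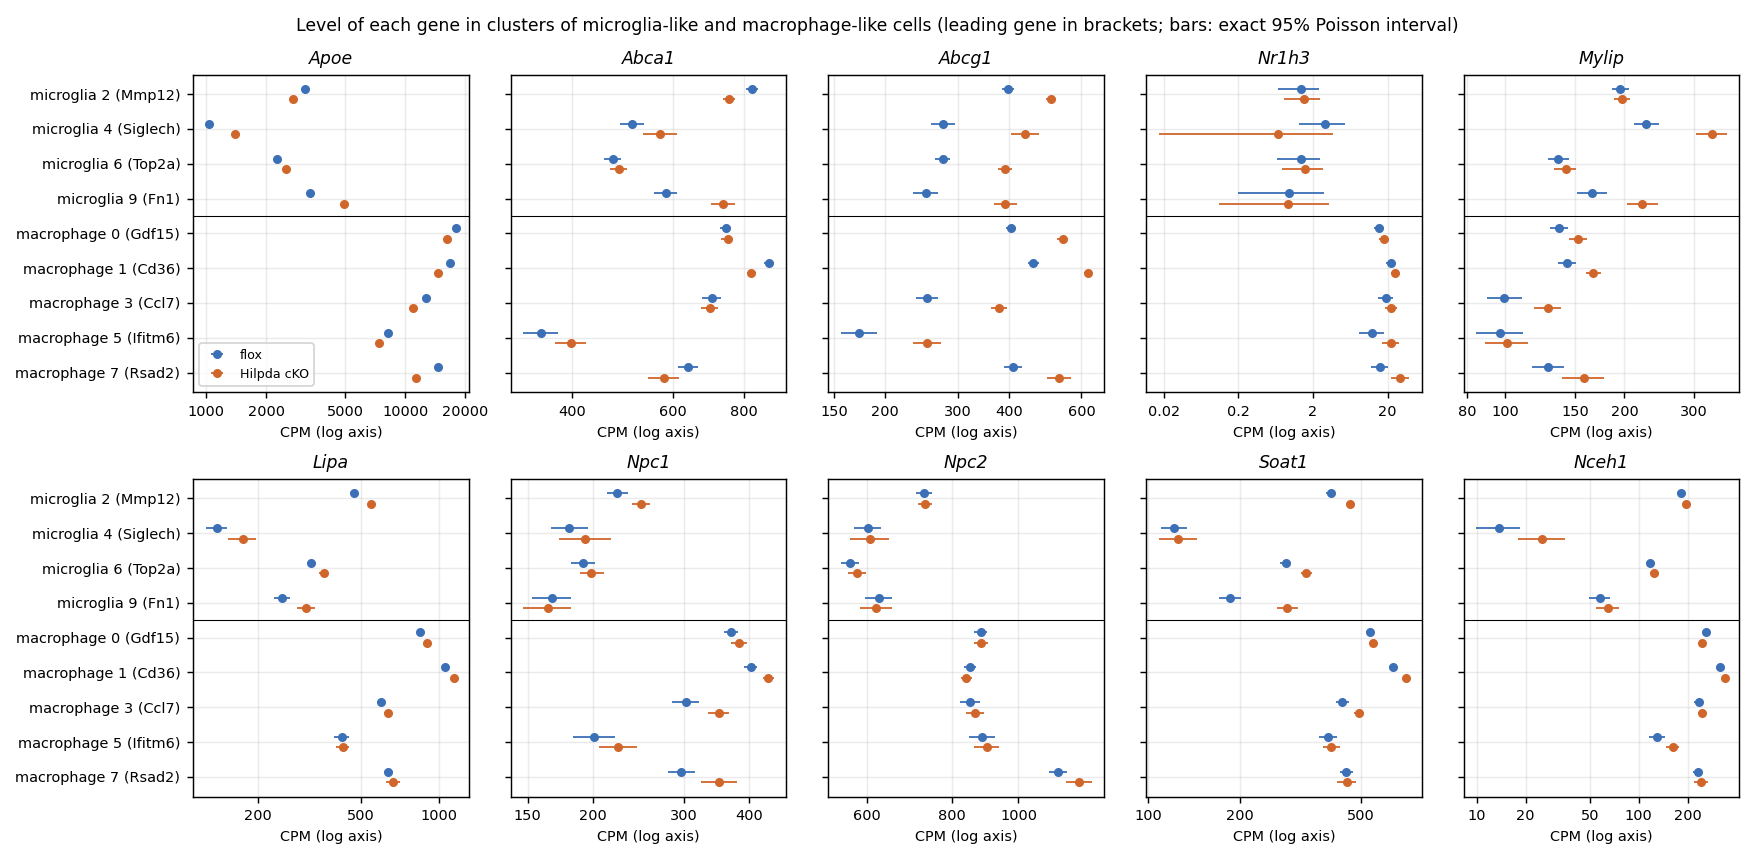
Level of each gene, in CPM on a log axis, in 4 microglia-like and 5 macrophage-like clusters (leading gene in brackets), with flox in blue, Hilpda cKO in orange and exact 95% Poisson intervals. Nceh1 in microglia cluster 4 (13.7 and 25.4 CPM) and Apoe in all macrophage-like clusters (7382 CPM or more) stand apart.

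Between the libraries, differences in the 2 large classes were small for all 10 genes. None was at least 2-fold in macrophage-like cells, where 5.38% of 10841 genes were lower and 0.627% higher in the cKO-labelled library, nor in microglia-like cells, where 5.82% of 10943 were lower and 0.521% higher. Hilpda itself was higher in microglia-like cells of that library, so direction here refers to the label only. In macrophage-like cells Apoe was lower by label, with a log2 ratio of -0.21 (-0.22 to -0.20), while Abcg1 was higher at 0.45 (0.41 to 0.48) and Nr1h3 at 0.35 (0.19 to 0.51). The others lay between -0.03 and 0.21. The median of the 10 was 0.14, beside 0.01 for all genes. In microglia-like cells Abcg1 (0.50, 0.46 to 0.54), Soat1 (0.36, 0.32 to 0.41), Lipa (0.33, 0.28 to 0.37) and Nceh1 (0.29, 0.22 to 0.37) were higher and Apoe was at 0.12 (0.11 to 0.14). The median was 0.13, beside -0.04 for all genes. Clusters filled the classes unequally. The largest macrophage-like cluster was cluster 0 in flox (1255 cells) and cluster 1 in the cKO-labelled library (1053 cells), and the largest microglia-like cluster was cluster 4 in flox (666 cells) and cluster 2 in the cKO-labelled library (558 cells).

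Within clusters the Abcg1 difference was of like size, with an interval above 0 in 9 of 9 clusters and log2 ratios from 0.35 to 0.66. Apoe was lower in the cKO-labelled library in 5 of 5 macrophage-like clusters, by label, from -0.37 to -0.15. In microglia-like clusters Apoe differed in sign, at -0.20 in cluster 2 and above 0 in the other 3, from 0.16 to 0.57. Lipa had an interval above 0 in 4 of 4 microglia-like clusters, with log2 ratios from 0.16 to 0.33, Soat1 in 3 of 4 and Nceh1 in 2 of 4. The log2 ratios themselves were above 0 in every microglia-like cluster for Soat1 (lowest 0.04) and Nceh1 (lowest 0.09).

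Abcg1 was higher in the cKO-labelled library in all 8 classes, with log2 ratios from 0.22 to 1.63 and an interval above 0 in 7, all but neutrophil-like cells. Less the median of the other classes, Abcg1 stood at -0.05 for macrophage-like cells and 0.01 for microglia-like cells. Whether the common shift came with the library or with the genotype cannot be told apart. It reached 2-fold in border-associated macrophage-like cells, from 127 to 455 UMIs (1.63, 1.34 to 1.92), the 1 call among 9 genes measured there (background 1.17% higher, 4.84% lower). The 5 cells with the most Abcg1 held 28.3% and 20.4% of those UMIs. Over the alternatives the value ran from 1.14 to 1.8. Beside it, the 9 macrophage markers, all detected in both libraries, summed to 403 and 594 CPM in this class and the 11 microglia markers to 3527 and 4039 CPM, and their part in the result was not tested. Mylip (0.66, 0.40 to 0.92) and Abca1 (0.36, 0.22 to 0.50) were also higher there.

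Mural-like cells, which wrap small vessels, had 4 of 8 measured genes at least 2-fold higher in the cKO-labelled library (background 3.67% higher, 4.16% lower): Apoe (log2 ratio 1.03, 0.86 to 1.21), Abca1 (1.26, 0.58 to 1.99), Abcg1 (1.28, 0.44 to 2.21) and Soat1 (1.07, 0.45 to 1.72). These sums rest on few cells. The 5 cells with the most Apoe held 46.9% and 72.5% of its UMIs, and those with the most Abca1 82.6% and 65.1%. The thinned share of mural-like cells with an Apoe UMI went the other way, 40.2% and 34.3% (72.0% and 80.9% unthinned), so no order is read from it. In the same cells 10 microglia markers (all but Sparc, which vessel cells express) summed to 401 and 994 CPM, with Tmem119 at 0 UMIs in flox, and Arg1 was at 10.3 and 59.1 CPM. The 9 macrophage markers summed to 1354 and 1387 CPM, with Ms4a4c at 0 in the cKO-labelled library. That sum includes Fn1, which is not particular to macrophages. Fn1 was at 2592 and 2753 CPM in endothelial-like cells and at 825 and 830 CPM in macrophage-like cells. The part of these microglia and macrophage markers in the result was not tested. With doublets kept, 0 of the 4 calls held, and with equal weight per cell only Soat1 was called.

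In the other 4 classes no gene was called: 0 of 9 in endothelial-like (6.38% of genes lower, 0.885% higher), 0 of 9 in oligodendrocyte-like (4.72% and 0.897%), 0 of 9 in dendritic-like (4.69% and 0.561%) and 0 of 8 in neutrophil-like cells (3.0% and 2.88%). Endothelial-like cells had lower Apoe (-0.46, -0.55 to -0.37) and Abca1 (-0.27, -0.41 to -0.13) and higher Abcg1 (0.76, 0.56 to 0.97) by label. Clusters filled this class unequally. Cluster 15, led by Spock2 and Slco1a4, had 218 flox and 82 cKO cells. Cluster 8, led by Ackr1 and Tmem252, had 289 and 351, and cluster 20, led by Tmem252 and Ackr1, had 56 and 113. The part of this make-up in the ratios was not tested. The 10 microglia markers without Sparc fell in the same direction as Apoe in this class, from 449 to 245 CPM. Among the macrophage markers, Ccr2 (8.19 and 3.82 CPM), Ly6c2 (14.2 and 3.05), Plac8 (7.83 and 1.53), Ms4a4c (4.98 and 3.56) and F10 (1.07 and 0.764) were lower too. Arg1 (11.4 and 12.2 CPM), Chil3 (12.1 and 13.2), Thbs1 (90.8 and 92.9) and Fn1 (2592 and 2753) were not. The part of these markers in the result was not tested.

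**Figure D4:**
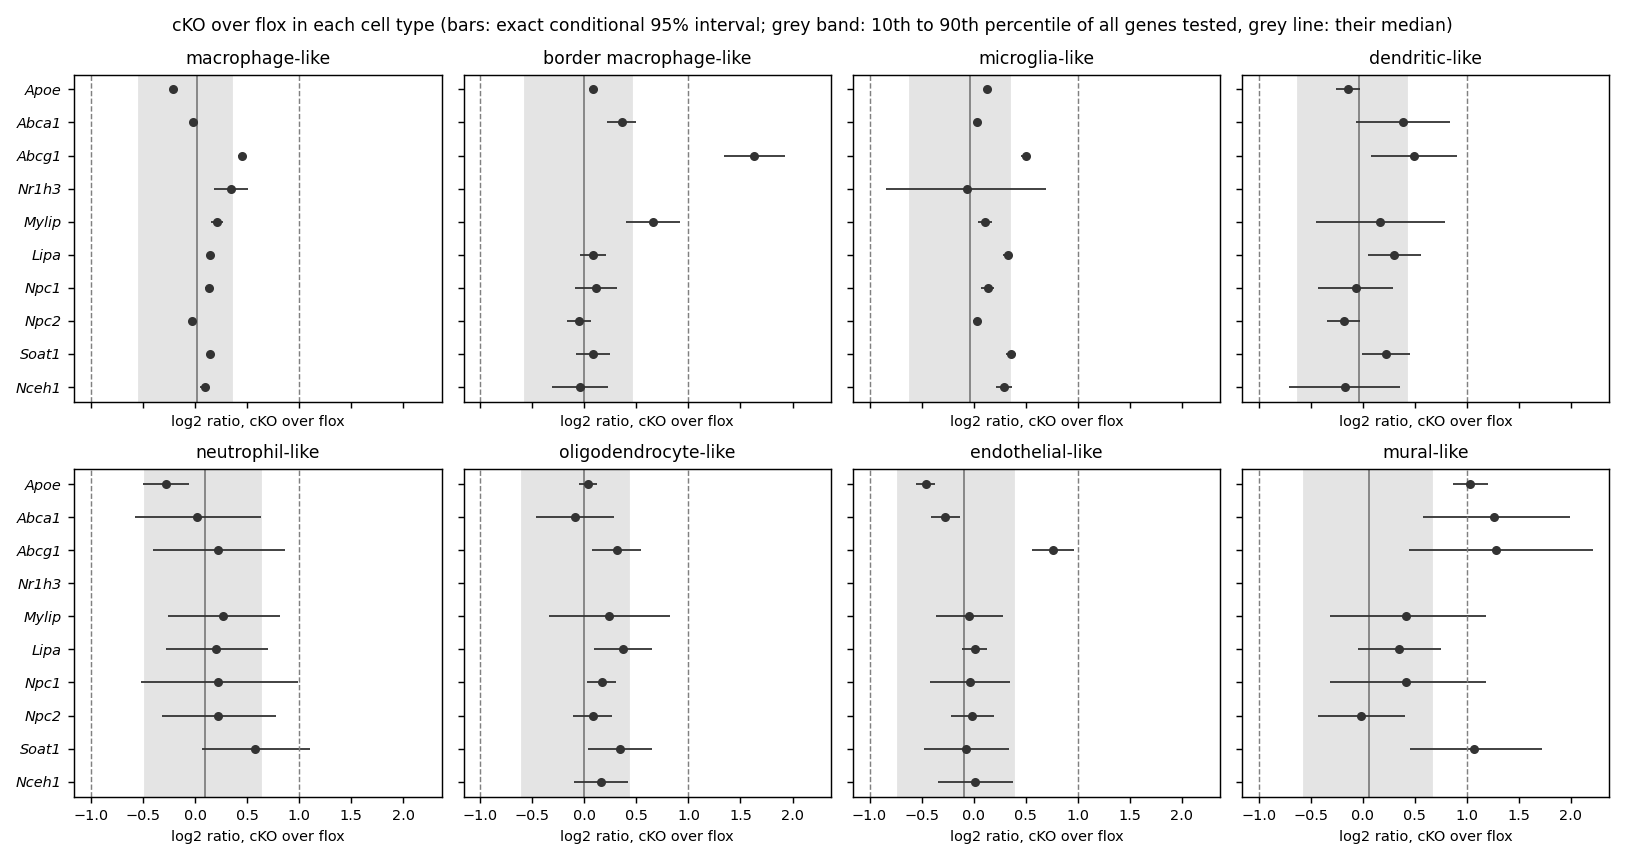
Log2 ratio of the cKO-labelled over the flox library for each gene in 8 classes, with exact conditional 95% intervals; the grey band spans the 10th to 90th percentile of all genes measured, the grey line is their median and dashed lines mark 2-fold. Abcg1 lies right of 0 in every panel, from 0.22 to 1.63, and 4 genes pass 2-fold in mural-like cells.

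Other genes of the pathway were taken from 5 lists, 81 genes in all. Among sterol nuclear receptors and their partners, 0 were higher in the cKO-labelled library. Rxrb, a partner of LXR, was lower there in macrophage-like cells (-2.08) and in microglia-like cells (-2.78), and Ppard in microglia-like cells (-1.05). Of 11 other LXR targets 1 was lower, the lipid transporter Abca7 (-1.10 and -1.32), and of 22 lysosomal partners 1, Tfeb, the regulator of lysosomal genes (-1.99 and -1.92). Over all genes the share lower was 5.38% for macrophage-like cells and 5.82% for microglia-like cells, so 1 of 22 and 1 of 11 are near the background. These 4 genes have a GC-rich transcript end, from 54.4% to 61.0% GC over the last 500 bases of the transcript, beside a median of 44.6%. Genes with 55% to 60% GC there, the range of Rxrb and Abca7, had a median log2 ratio of -0.39 for macrophage-like cells and -0.45 for microglia-like cells. In the 50% to 55% range, which holds Ppard, the medians were 0.03 and -0.0025, and Tfeb lies above both ranges. The part of GC content in these calls was not tested. Sterol transfer proteins (13 measured) and genes of the SREBP-2 pathway, which makes cholesterol (22 measured for macrophage-like cells, 21 for microglia-like cells), had 0 calls. The most abundant genes of each list differed little by label. In macrophage-like and then microglia-like cells the log2 ratios were 0.34 and 0.33 for Psap, -0.38 and -0.30 for Lamp1 and 0.23 and 0.24 for Tpp1, all lysosomal proteins. They were 0.02 and 0.11 for Arl4c, 0.02 and 0.33 for Pltp and 0.20 and 0.38 for Smpdl3a, all LXR targets. Ncor1, Nrip1, Osbpl8, Osbpl11, Scp2, Insig1, Insig2 and Mbtps1 lay between -0.20 and 0.26. Psap, the precursor of lysosomal lipid-binding saposins, was at 12960 and 16392 CPM in macrophage-like and 3561 and 4480 CPM in microglia-like cells.

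Between microglia-like and macrophage-like cells, 4 of 11 other LXR targets were lower in microglia-like cells and 0 higher, where 6.59% of all genes were lower and 12.6% higher. Pltp, the phospholipid transfer protein, was at 21.1 and 26.5 CPM in microglia-like and 496 and 504 CPM in macrophage-like cells. Smpdl3a was lower by log2 ratios of -2.57 and -2.38, Apoc2 by -3.78 and -3.49, and Apoc1 by -1.45 and -1.07. Of 22 lysosomal partners Psap (-1.86 and -1.87) and Gm2a (-1.22 and -1.35) were lower, and so were the receptor Pparg (-3.73 and -3.82) and the sterol transfer protein Gramd1b (-1.51 and -1.32). Ppard, Pparg, Apoc1, Apoc2, Gm2a and Gramd1b were named after their values were seen.

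Across the 8 classes and both libraries (16 points that share library and depth), the genes whose levels on the log2(CPM + 10) scale were most like each of the 10 were found by Pearson's r among 5796 genes, as a description. Apoe was most like Ms4a7 (0.96), Gdf15 (0.95) and Paox (0.93), Abca1 like Slc7a7 (0.95), Slc36a1 (0.93) and Rnase4 (0.91), and Lipa like Slc7a7 (0.93), Ap3s1 (0.92) and Abca1 itself (0.91). Npc1 was most like Scarb2 (0.97), the gene of a lysosomal membrane protein, followed by Kcnk13 (0.94) and Tmed7 (0.93). Npc2 was most like Cd48 (0.97), Rab7b and Lpxn (0.96 each), and Soat1 like Spg21, Creg1 and Cotl1 (0.97 each). Nceh1 was most like Vps35 (0.92), Rap2b and Atp6v1a (0.90 each), and Mylip like Ccl3 (0.93), Nek6 and Tnf (0.92 each). Abcg1 was most like Ube2a (0.87), Aprt (0.86) and Lhfpl2 (0.84), and Nr1h3 like Fabp4 (0.86), Trp53inp2 and Eif4e3 (0.83 each). Among the 10, Abca1 and Lipa (0.91), Npc2 and Soat1 (0.89) and Npc1 and Nceh1 (0.88) were most alike, and Nr1h3 had r between -0.24 and 0.27 with the others.

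In the GRCm38 build the genes lie on different chromosomes: Apoe (ENSMUSG00000002985) at chromosome 7, 19696109 to 19699188, minus strand; Abca1 (ENSMUSG00000015243) at chromosome 4, 53030787 to 53159895, minus strand; Abcg1 (ENSMUSG00000024030) at chromosome 17, 31057675 to 31117988, plus strand. Nr1h3 (ENSMUSG00000002108) is at chromosome 2, 91184061 to 91202834, minus strand, and Mylip (ENSMUSG00000038175) at chromosome 13, 45389742 to 45412022, plus strand. Lipa (ENSMUSG00000024781) is at chromosome 19, 34492318 to 34527474, minus strand, Npc2 (ENSMUSG00000021242) at chromosome 12, 84754562 to 84773152, minus strand, and Npc1 is ENSMUSG00000024413. Soat1 (ENSMUSG00000026600) is at chromosome 1, 156424525 to 156474331, minus strand, and Nceh1 (ENSMUSG00000027698) at chromosome 3, 27182965 to 27284608, plus strand.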

How the data were processed

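The authors deposited raw UMI counts per gene and barcode for each library, whole numbers with no normalization. The submitters' processing notes name CASAVA 1.8, STARsolo, Seurat and the build mm10. Not given in the sources used here were the annotation, the counting settings and the cell caller. In all, 8593 flox and 7382 cKO barcodes held 67864602 and 70665440 UMIs. Of 31253 identifiers, 31107 matched GENCODE vM21, which supplied coordinates and transcript ends.

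Cells with at least 500 UMIs, 200 genes and at most 25% mitochondrial UMIs were kept, less 210 flox and 142 cKO doublets called with Scrublet in scanpy 1.11.5. Both libraries were clustered together, without integration and without the 10 genes (2000 variable genes, 30 components, 20 neighbours, Leiden resolution 1 with leidenalg 0.10.2), into 30 clusters. A cluster took a class from fixed markers of 18 classes, with at least 3 markers detected in 10% of cells and 2-fold above other clusters. Haemoglobin-led shallow cells stayed unnamed.

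UMIs were summed per class and library and given as CPM. Levels have exact Poisson intervals, shares Clopper-Pearson intervals and ratios exact conditional intervals (95%, scipy 1.17.1). A library difference was called at 2-fold or more with 30 UMIs in the higher library and an interval without 0. The scripts were tested on simulated data. The rule for other names took the 3 most abundant genes of each list and its extreme called ratios, the 3 most alike genes per member and the 2 leading genes per cluster; some list members are not reported here. The 10 genes, the lists and the tests were chosen with earlier results of these data known. Alternatives were a marker gate on single cells, doublets kept, mitochondrial limit 10%, 1000 UMIs per cell, resolution 2, TMM scaling (edgeR 4.0.16), equal weight per cell, subtraction of medians by GC or by class, 100 UMIs in the higher library and, added after the data were seen, leaving out macrophage cluster 1.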

Additional observations from a re-analysis of the deposited data

How the results depend on the processing

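No paired analysis was possible because each group has 1 library. The counts that moved by more than 1.5 times were few. The number of genes at least 2-fold higher in mural-like cells of the cKO-labelled library, 4 as reported, was 1 with the gate on single cells, 0 with doublets kept, 1 with equal weight per cell, 2 after subtraction of the median for genes with similar GC content, 2 after subtraction of the median of the other classes and 1 with at least 100 UMIs. The number called in neutrophil-like cells went from 0 to 1 with doublets kept, where Apoe was at -1.40. The classes with Abcg1 higher in the cKO-labelled library went from 8 to 4 after subtraction of the median of the other classes, a count that this centring fixes for any gene measured in 8 classes. The genes lower in microglia-like than in macrophage-like cells went from 3 to 1 with the gate on single cells, and those lower in border-associated macrophage-like than in macrophage-like cells from 3 to 0. That gate gave a class to 5298 of 8065 flox and 4479 of 6984 cKO cells. TMM scaling and equal weight per cell made 4 genes lower in microglia-like cells, with Nceh1 added. No called value changed sign under any of these alternatives, though the uncalled microglia over macrophage ratios of Abca1 and Abcg1 did with the gate, and the causes were not tested. TMM scaling moved the endothelial-like ratios by 0.14 and those of the other classes by less than 0.1. Depth limits Nr1h3 outside macrophage-like cells and all genes in mural-like and neutrophil-like cells, where sums rest on few UMIs.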
